A study of Mus musculus with 4 samples.

Results

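The T2-only regions at gene ends are stretches of accessible chromatin that had a deposited peak in both T2 libraries, no peak in either T1 library, and a midpoint within 1000 bp of the start or the end of a protein-coding gene. They numbered 410 of the 77914 regions obtained by joining the peaks of all 4 libraries wherever these overlapped by at least 1 bp. The peaks came from ATAC-seq, which reads out accessible DNA by where a transposase can cut and tag it. The T2 group held 2 libraries (replicates 1 and 2) of MPP3 cells with the genotype label WTiMOS_T2, and the T1 group held 2 libraries (replicates 1 and 2) of MPP3 cells with the genotype label WTiMOS_T1. Cells of both groups were sorted by flow cytometry from the bone marrow of WT-iMOS mice aged 3 months. The labels do not explain T1, T2 or iMOS, give no strain or allele beyond these names, and do not say whether replicates came from separate animals, so the spread between replicates may be technical. The study asks what Bcl11a, a zinc-finger transcription factor, does within MPP3 cells.

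MPP3 cells are multipotent progenitors that lean towards granulocytes and monocytes. The start of a gene is where transcription begins, and active starts usually lie in nucleosome-poor DNA that a transposase reaches easily. Many mammalian promoters, above all those of broadly used genes, lie in CpG islands, where the CG dinucleotide has escaped the loss seen elsewhere in the genome, and these tend to be open in most cell types. Promoters poor in CpG are more often opened in particular tissues. Accessible DNA near the 3′ end of a gene, as in introns and between genes, can hold regulatory elements that act over a distance.

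All 4 lists were peak calls without read counts, so sequencing depth is unknown. Peaks on chromosomes 1 to 19, X and Y numbered 66764 and 62704 in the T2 libraries and 58454 and 54045 in the T1 libraries. The longer T2 lists bear directly on how many T2-only regions exist. When every list was shortened to the length of the shortest, 194 T2-only and 213 T1-only regions lay at gene ends, against 410 and 68 with the lists as deposited. Of the 410, 173 (42.2%) were still T2-only at a gene end in the shortened lists. Leaving out a library moved the number of T2-only regions at gene ends to 697 without T2 replicate 1, 831 without T2 replicate 2 and 808 without T1 replicate 1. As a check of the cell label, Kit, Cd34, Cd48, Flt3, Fcgr3, Cebpa, Spi1 and Ptprc, all expressed by haematopoietic progenitors, each had an end region with peaks in all 4 libraries, Ly6a had no region, and Mpo had a T2-only one. The ends of Cdh5 (endothelium), Col1a1 (stroma), Alb (hepatocytes) and Rbfox3 (neurons) had no region, while Cd3e (T cells) and Epcam (epithelium) each had an end region in all 4 libraries, and the part of other cells in the results below was not tested.

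Some of the 410 regions lay over promoters whose sequence is known, and 5 of these promoters show the range of CpG content described further on. The sequences are RefSeq promoter windows on GRCm38.p6, the assembly named mm10 by the files, and run from 250 bases before to 50 bases after the annotated start, written 5′ to 3′ in the direction of the gene with each CG in capitals. Mpo encodes myeloperoxidase, the main granule enzyme of neutrophil precursors, and its window is chr11:87793534-87793833 on the plus strand. Aqp8 encodes a water channel, with its window at chr7:123462044-123462343 on the plus strand. F11r encodes JAM-A, a junctional adhesion molecule also found on haematopoietic cells and platelets, with its window at chr1:171437311-171437610 on the plus strand. Rgs17 encodes a regulator of G protein signalling, with its window at chr10:5922351-5922650 on the minus strand. Neurod1 encodes a bHLH transcription factor of neurons and endocrine cells, with its window at chr2:79456587-79456886 on the minus strand.
Mpo: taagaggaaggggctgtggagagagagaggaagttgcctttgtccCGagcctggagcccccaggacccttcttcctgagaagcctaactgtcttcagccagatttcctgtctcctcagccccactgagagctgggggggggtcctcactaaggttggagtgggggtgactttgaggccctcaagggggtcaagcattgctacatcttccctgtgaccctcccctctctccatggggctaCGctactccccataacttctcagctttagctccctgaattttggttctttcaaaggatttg
Aqp8: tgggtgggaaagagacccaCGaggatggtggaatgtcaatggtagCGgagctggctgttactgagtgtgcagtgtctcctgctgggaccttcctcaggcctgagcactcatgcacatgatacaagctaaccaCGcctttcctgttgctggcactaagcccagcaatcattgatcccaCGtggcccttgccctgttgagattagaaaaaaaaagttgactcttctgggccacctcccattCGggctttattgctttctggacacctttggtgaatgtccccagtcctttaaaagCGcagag
F11r: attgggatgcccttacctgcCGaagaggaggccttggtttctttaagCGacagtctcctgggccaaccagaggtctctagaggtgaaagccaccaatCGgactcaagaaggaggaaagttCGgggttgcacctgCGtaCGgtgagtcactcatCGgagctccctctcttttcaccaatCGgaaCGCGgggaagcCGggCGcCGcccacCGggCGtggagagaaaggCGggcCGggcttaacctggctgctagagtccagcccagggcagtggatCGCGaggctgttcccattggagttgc
Rgs17: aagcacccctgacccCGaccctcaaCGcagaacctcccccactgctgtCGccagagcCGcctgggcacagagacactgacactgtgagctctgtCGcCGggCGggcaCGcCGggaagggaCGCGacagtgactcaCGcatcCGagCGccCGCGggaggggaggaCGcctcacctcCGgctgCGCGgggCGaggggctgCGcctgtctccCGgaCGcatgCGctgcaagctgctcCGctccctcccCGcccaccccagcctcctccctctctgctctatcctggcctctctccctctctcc
Neurod1: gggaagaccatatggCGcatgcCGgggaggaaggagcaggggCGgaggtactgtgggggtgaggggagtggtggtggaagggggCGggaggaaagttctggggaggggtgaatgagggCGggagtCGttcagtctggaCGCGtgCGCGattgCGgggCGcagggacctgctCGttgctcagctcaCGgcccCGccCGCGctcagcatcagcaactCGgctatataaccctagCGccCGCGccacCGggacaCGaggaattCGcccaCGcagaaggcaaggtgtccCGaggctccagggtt

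These windows hold 2 CpG in Mpo, 6 in Aqp8, 19 in F11r, 27 in Rgs17 and 26 in Neurod1. The ratio of observed to expected CpG, which corrects for base composition, was 0.0871 in Mpo, 0.296 in Aqp8, 0.702 in F11r, 0.748 in Rgs17 and 0.837 in Neurod1. The T2-only region covered 300 of the 300 window bases in Mpo, Aqp8 and Rgs17, 246 in F11r and 232 in Neurod1.

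Group-only regions were uncommon at gene ends compared with the rest of the genome. T2-only regions made up 6.88% of all regions (5364), 2.89% of the 14204 regions at gene ends (410) and 7.78% of the 63710 regions elsewhere (4954). T1-only regions made up 2.33% of all regions (1814) and 0.479% of those at gene ends (68), and regions with a peak in all 4 libraries made up 83.7% of those at gene ends (11888). Seen the other way, 7.64% of T2-only regions (95% Wilson interval 6.96 to 8.39), 3.75% of T1-only regions (2.97 to 4.73) and 26.9% of regions in all 4 libraries (26.4 to 27.3) lay at a gene end. These Wilson intervals, like the later ones, describe counting error alone, and the libraries, not the regions, are the replicates.

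The share at gene ends was similarly low in regions found in fewer libraries. Regions with a peak in T2 replicate 1 alone had 404 of 6269 at gene ends (6.44%) and those of T2 replicate 2 alone had 251 of 3508 (7.16%). Those of T1 replicate 1 alone had 163 of 2860 (5.70%) and those of T1 replicate 2 alone had 83 of 1528 (5.43%). At equal list length the share was 6.56% for T2-only and 6.78% for T1-only regions, where the lists as deposited gave 7.64% and 3.75%. Of all peaks in a library, 20.4% and 21.6% lay at gene ends in the T2 libraries and 22.2% and 23.5% in the T1 libraries, that is 21.0% ± 0.796 in T2 and 22.8% ± 0.955 in T1 (SD, n = 2 each), a difference of −1.82 percentage points (exact permutation test, two-sided, p = 0.333, the smallest that 2 against 2 libraries allow).

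**Figure D1:**
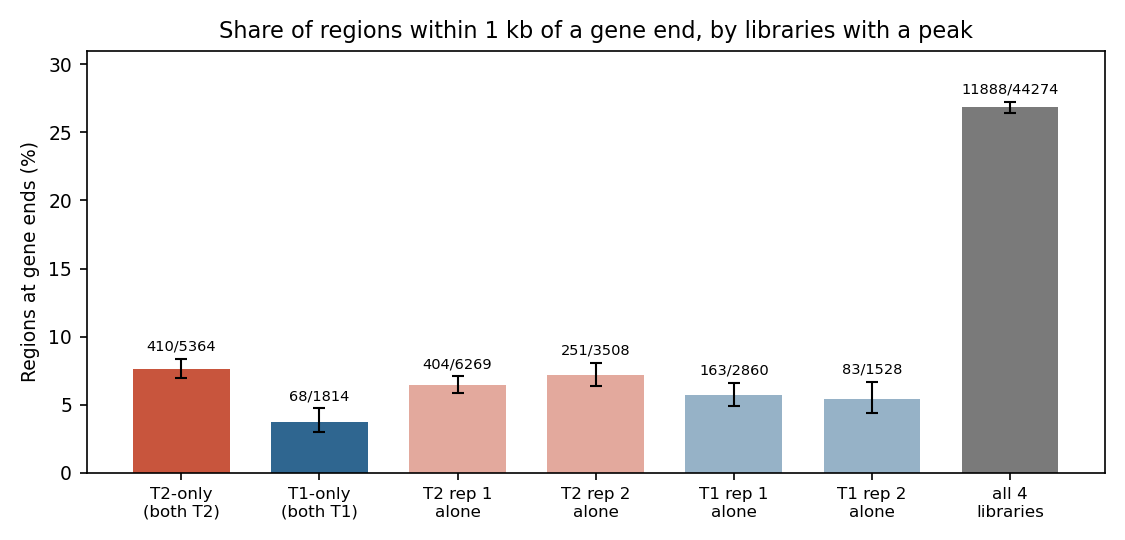
Share of regions within 1000 bp of a gene end (bars, percent, with 95% Wilson intervals), by which libraries had a peak, with counts above the bars. T2-only regions stand at 7.64%, T1-only regions at 3.75%, regions of 1 library between 5.43% and 7.16%, and regions of all 4 libraries at 26.9%.

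The 410 regions were short and of modest strength. The measure of strength is the authors' −log10 q, the significance of a peak over the local background of its own library, and its values order peaks of the same library. Limits applied to several libraries, and the smaller value of both T2 libraries, are used below to describe the lists. They do not compare accessibility between libraries. Over the 410 regions −log10 q had a median of 9.54 in T2 replicate 1 (2.26 to 48.3) and of 8.14 in T2 replicate 2 (2.39 to 40.4), and neither T1 library had a peak, by definition. In the list of T2 replicate 1, 376 of them (91.7%) fell below the median strength of all peaks, and 381 (92.9%) did so in T2 replicate 2. Both T2 libraries gave at least 5 in 309 regions (75.4%), at least 10 in 125 (30.5%), at least 20 in 28 and at least 30 in 4. Their median width was 393.5 bp (226 to 1145), against 371 bp for T2-only regions elsewhere, 411 bp for T1-only regions at gene ends and 987 bp for gene-end regions of all 4 libraries.

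Strength in the T2 libraries was moderately correlated across the regions, all of which were chosen for a peak in both. Across the 410 regions, Pearson's r between the libraries was 0.750 and Spearman's rank correlation 0.675 for −log10 q, and 0.784 and 0.787 for the authors' fold over background. This is a description across regions of the same libraries, which are not independent replicates. Peak summits of both libraries lay within 50 bp of each other in 230 regions. Some members stood at different places in the order of each library. Car1, with −log10 q of 32.0 and 5.97, was above the upper quartile of the 410 in T2 replicate 1 (15.5). In T2 replicate 2 it was below their median (8.14).

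**Figure D2:**
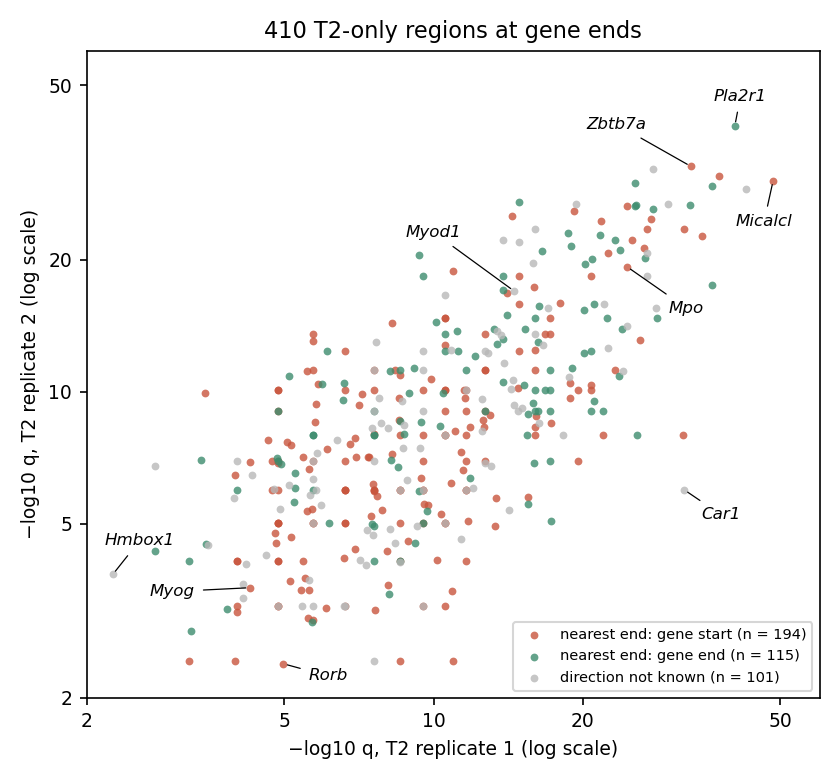
Authors' −log10 q of the 410 regions in T2 replicate 1 (x axis) and T2 replicate 2 (y axis), both log scales, 1 point a region, coloured by the gene end that is nearest. Most points lie under 20 in both libraries, and Pla2r1 is the strongest with 40.5 and 40.4. Car1, with 32.0 and 5.97, ranks high among the regions in replicate 1 and below their median in replicate 2.

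The T2-only regions were divided between gene starts and 3′ ends. The direction of the gene was known for the nearest end of 309 regions, and this was a start in 194 (62.8%, 57.3 to 68.0) and an end in 115. Of gene-end regions in all 4 libraries with known direction, 91.5% lay nearest to a start (8664 of 9465), and of T1-only ones 52.1% (25 of 48). The midpoint was within 500 bp of the gene end in 248 of the 410 (60.5%), against 84.1% of regions in all 4 libraries. Regions nearest to a 3′ end had a median of 12.7 and 10.1 in the T2 libraries and those nearest to a start 8.56 and 7.33, with median widths of 358 and 427.5 bp. The strength chose the members, so these values describe them only.

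**Figure D3:**
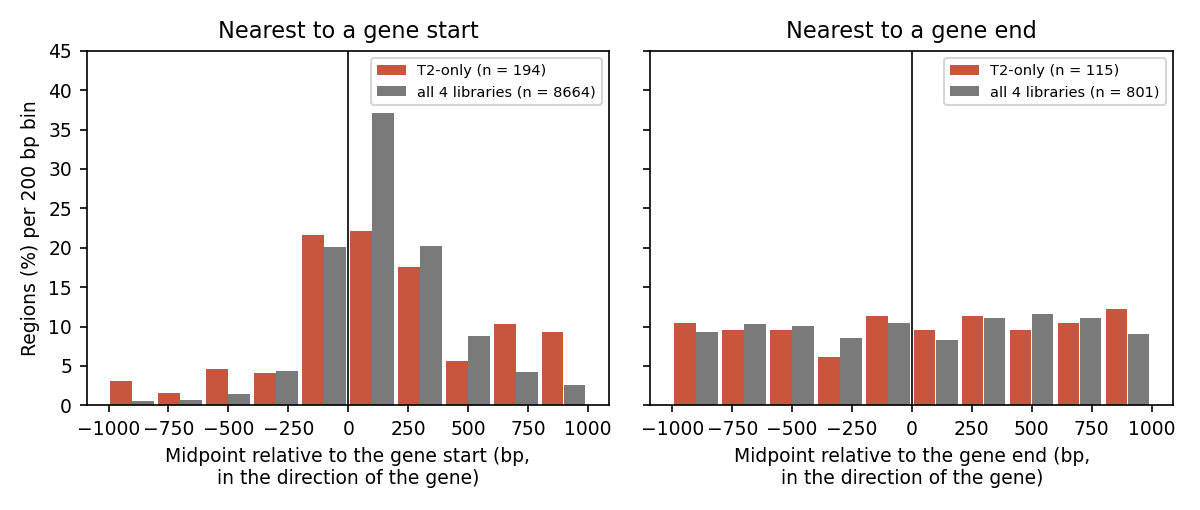
Midpoint of each region relative to the nearest gene start (left) or 3′ end (right), in bp along the gene with negative values upstream, as percent of regions per 200 bp bin. T2-only regions (194 and 115) are spread more evenly around starts than regions of all 4 libraries (8664 and 801), and both are flat around 3′ ends.

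The surroundings of these sites were measured by the nearest T1 peak. The nearest T1 peak was a median of 5085 bp away, it was within 500 bp of 41 regions (10%) and within 200 bp of 4, and it was within 5000 bp of 201 (49.0%). For T2-only regions elsewhere the median was 6120 bp, with 4.18% within 500 bp and 43.1% within 5000 bp. Around gene-end regions of all 4 libraries, another region with a T1 peak was within 500 bp in 4.99% and within 5000 bp in 33.3%. At 41 of the 410 (10%) the same gene end also held a region with peaks in all 4 libraries, and at 50 (12.2%) it held some T1 peak. These distances follow in part from the rule, which asked for no T1 peak in the region.

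The 410 regions touched the ends of 424 protein-coding genes, 1.94% of 21887, against 69 genes (0.315%) with a T1-only region and 12519 (57.2%) with a region of all 4 libraries at an end. A region at an end need not act on that gene. Of the 424 genes, 115 (27.1%) had no T1 peak anywhere in the gene or within 1000 bp of it, close to the 28.0% of all protein-coding genes. A region of all 4 libraries was at an end of 175 of the 424 genes (41.3%), against 57.2% of all genes. The T2-only region lay over a promoter window of 114 genes, which include Bco2, a gene outside the 424. At 108 of the 114 (94.7%) no listed start had a T1 peak. Of the 114, 93 (81.6%) had only 1 listed start, the one under the region. The rule asked for no T1 peak there, so the 94.7% largely follows from the rule.

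Accessible sites at the member genes that were present in every library gave a measure that the choice of members did not use. The 179 such regions at the ends of these genes had median rank percentiles (100 is the strongest peak of a list) of 78.0 and 76.0 in the T2 libraries and 80.0 and 77.1 in the T1 libraries, that is 77.0 ± 1.43 in T2 and 78.6 ± 2.06 in T1 (SD, n = 2 each). The groups overlapped, and the difference of −1.63 lay between the SD of T2 and that of T1 (exact permutation test, two-sided, p = 0.667). Over all 11888 gene-end regions of all 4 libraries the percentiles were 83.4 and 81.3 in T2 and 82.1 and 79.8 in T1, a difference of 1.36 (p = 0.667, same exact test). The T2 lists are longer, and a percentile depends on the length of its list, so neither difference can be read as a difference in accessibility.

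The strongest 20 of the 410 regions had −log10 q of at least 22.2 in both T2 libraries, at rank percentiles of 49.0 to 71.9. By the nearest end, 9 lay at a start, 8 at a 3′ end and 3 at an end of unknown direction. Pla2r1, a receptor for secreted phospholipase A2, came first, with −log10 q of 40.5 and 40.4 at chr2:60418175-60418437, 763 bp inside its 3′ end and 12384 bp from the nearest T1 peak. Micalcl had the highest value in a T2 library, 48.3, with 30.3 in replicate 2, at 823 bp inside its start. Prkar1a, the type I alpha regulatory subunit of protein kinase A, had 37.7 and 31.1 at chr11:109648566-109648947, 267 bp upstream of its start. Prkar1b, the type I beta subunit, had 32.9 and 26.7, 635 bp inside its 3′ end. Their nearest T1 peaks were 1244 and 2314 bp away.

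Zbtb7a ranked second. It encodes LRF, a zinc-finger repressor that silences fetal globin in parallel to BCL11A and takes part in lineage choice in blood. Its region at chr10:81134255-81134622 had −log10 q of 33.0 and 32.7, with the midpoint 787 bp upstream of the start. The next region of all 4 libraries was 1391 bp away, inside the gene, so the locus itself was accessible in every library. It was the only member among the 33 genes listed as partners of BCL11A or regulators of globin, that is 3.03%, near the 1.94% of all genes, and 0 of the 33 had a T1-only end region, against 0.315% of all genes.

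The other strong members had varied roles. A region with 36.4 and 29.4 served 2 genes at once, at the facing 3′ ends of Map1lc3b, an autophagosome protein, and Zcchc14. Dlc1, a GTPase-activating protein, had 42.7 and 28.9, and Sptbn1, a beta spectrin, had 25.6 and 26.7. Slc36a2, a proton-coupled amino acid transporter, had 29.7 and 26.8, and Aqp8, shown above, had 27.4 and 24.8 over its start, with the nearest T1 peak 37803 bp away. Tut7, a terminal uridylyltransferase, had 27.7 and 26.2 at a site 609 bp from a T1 peak, and Ube2j2, a ubiquitin-conjugating enzyme, had 25.4 and 30.02. Wrnip1, which binds the Werner helicase, had 25.1 and 22.2 at 338 bp from a T1 peak, the smallest such gap of the 20. Tbx19, a T-box factor of the pituitary, had 31.9 and 23.5, Ect2l had 27.0 and 23.5, Thbs3, a thrombospondin, had 34.8 and 22.7, and Chp1, a calcium-binding protein, had 23.2 and 22.2.

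Few genes had more than 1 of these regions. Ddx25, an RNA helicase of the testis, had a strong region 188 bp past its 3′ end (25.5 and 26.5) and a weak one over its start (7.63 and 3.17). Nmu, which encodes the neuropeptide neuromedin U, had one 517 bp inside its 3′ end (20.7 and 12.3) and one over its start (4.85 and 3.24). Chst8, a sulfotransferase of glycoprotein hormones, had 11.1 and 8.12 upstream of its start and 8.24 and 7.21 inside it, and A3galt2, a galactosyltransferase, had 6.17 and 5.02 and 7.58 and 4.11 at its 3′ end. Gp1bb, a subunit of the platelet receptor for von Willebrand factor, overlaps Septin5, and the same 2 regions, with 9.71 and 5.34 and with 7.54 and 4.71, counted for both.

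**Figure D4:**
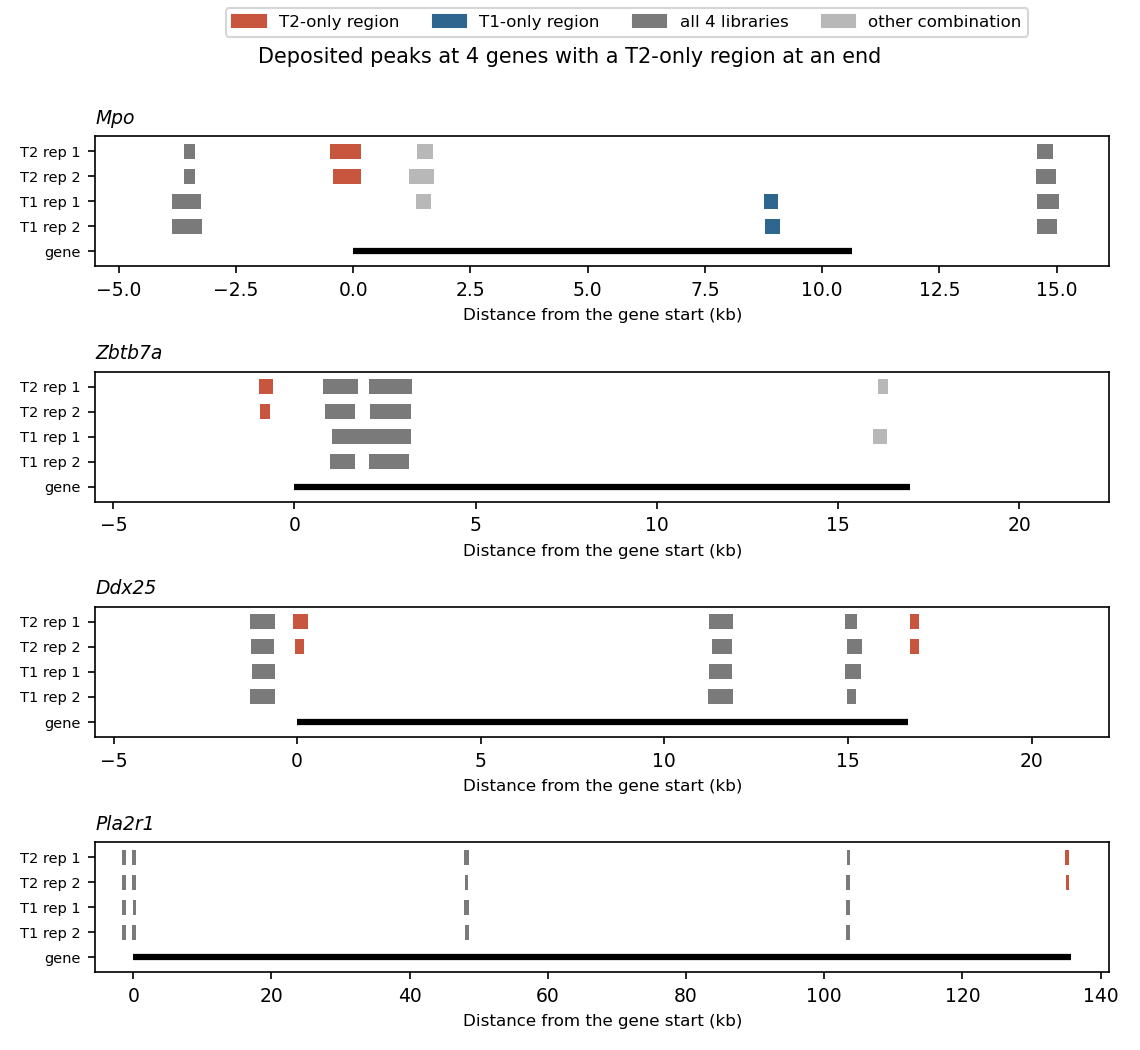
Deposited peaks of each library (bars, T2 libraries above T1 libraries) at Mpo, Zbtb7a, Ddx25 and Pla2r1, by distance from the gene start in kb, with the gene as a black line. The T2-only regions are red; at Mpo a T1-only region (blue) lies inside the gene, and regions of all 4 libraries flank or share each locus.

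Genes of the granulocyte and monocyte programme, to which MPP3 cells lean, held members on both sides. Of 38 genes on that list, 2 had a T2-only region at an end (5.26%, against 1.94% of all genes) and 3 a T1-only one (7.89%, against 0.315%). Mpo had −log10 q of 24.5 and 19.3 at chr11:87793292-87793961, over its start and the whole window printed above. The Mpo locus also had T1 peaks. A region 1461 bp inside the gene had 11.5 and 9.98 in the T2 libraries and 7.48 in T1 replicate 1. A T1-only region lay further inside the gene at 87802549 to 87802881 with 11.2 in both T1 libraries, and regions of all 4 libraries lay on both flanks. Cebpe, the C/EBP factor of late granulocyte maturation, had 5.72 and 6.32, and T1 had a peak 112 bp away. The genes with a T1-only end region were Cx3cr1, Ly6c2 and S100a8, and Ly6c2 belongs to a family with close copies, so its call is uncertain, and the part of shared reads was not tested.

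Other blood lineages held 1 or 2 members a list, where 1.94% of all genes had a T2-only and 0.315% a T1-only end region. Erythroid genes had 2 of 34 (5.88%), Car1, the red cell carbonic anhydrase given above, and Nfe2, a globin-locus activator, with 5.94 and 5.51. Megakaryocyte and platelet genes had 2 of 31 (6.45%), Gp1bb and Clec1b, the platelet receptor for podoplanin, with 23.7 and 21.1 at 895 bp past its 3′ end and 582 bp from a T1 peak. Il5ra, the interleukin-5 receptor of eosinophils, had 19.5 and 6.95 over its start, 1 of 29 mast cell, basophil and eosinophil genes (3.45%). Ccr7, a lymphocyte homing receptor, had 12.9 and 12.2, 1 of 45 lymphoid genes (2.22%). Hoxa5 was the 1 of 33 stem cell and multipotency genes (3.03%), with 5.52 and 3.76. Of the T1-only regions at gene ends, 1 belonged to the mast cell, basophil and eosinophil list and 0 to the erythroid, megakaryocyte, lymphoid and stem cell lists.

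Lists of signalling and general regulation held 0 to 3 members each, beside 1.94% of all genes. Tet2, the methylcytosine dioxygenase often mutated in clonal haematopoiesis, had 17.2 and 10.1 at 309 bp past its 3′ end, 1 of 40 RUNX, ETS and chromatin regulators. Single members were Oasl1 (18.8 and 10.4) among 40 interferon genes, Il18 (17.3 and 8.50) among 55 cytokine genes, Fosl2 (3.41 and 6.97) among 30 immediate early genes, Mki67 (8.22 and 6.97) among 42 cell cycle genes and Hk2 (3.21 and 4.11) among 41 metabolic genes. The Il18 region lay upstream of the gene and over a promoter window of Bco2, while the start of Il18 also had a region of all 4 libraries. The regions of Fosl2, Mki67 and Hk2 lay at 3′ ends. The start of each of these genes, and that of Tet2, had a region of all 4 libraries. Sfrp1, an inhibitor of Wnt ligands, had 14.8 and 9.03, Dll3, a Notch ligand, had 6.94 and 7.84, and Ptch1, the Hedgehog receptor, had 6.08 and 3.21, together 3 of 103 genes of the Wnt, Notch, TGF-beta, Hedgehog and FGF list (2.91%). Dendritic cell (21 genes), apoptosis (27), endothelial (27), stromal (35) and housekeeping (20) lists had 0. The 100 ribosomal protein genes and 179 mitochondrial ribosomal and complex genes had 0 too, with end regions of all 4 libraries at 86.0% and 92.7% of them.

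The list with the most members held regulators of tissues other than blood. Of 108 developmental regulators, 12 (11.1%, against 1.94% of all genes) had a T2-only region at an end and 0 a T1-only one (against 0.315%), and 47 (43.5%) had an end region of all 4 libraries, against 57.2%. Lhx5, a LIM homeobox gene of the forebrain, had 17.0 and 15.5 and Myod1, the myogenic determination factor, had 14.5 and 17.0. Sox8 had 10.3 and 8.36 and Pax1, of the sclerotome and thymus, had 9.45 and 6.35. The other 8 were under 5 in at least 1 library. They were Isl1, of motor neurons and heart, Neurod1, Gata5, of heart and endoderm, Nkx2-2, of ventral neural tube, Dlx5, of skeleton, Myog, of muscle, Foxc1, of mesoderm, and Olig2, of oligodendrocytes. Myod1, Myog and Myf6 (5.73 and 3.24) are 3 of the 4 muscle regulatory factors, a group picked after their values were seen.

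These 12 regions were among the weaker members, and the count moved with the lists. The smaller of both −log10 q had a median of 4.51 over the 12 regions, against 7.20 over all 410. With peaks of at least 5 in every list, 6 developmental regulators had a T2-only end region and 1 a T1-only one, and with at least 10 these were 8 and 0. Of the 12 regions themselves, 4 had at least 5 in both T2 libraries, and only those of Lhx5 and Myod1 had at least 10. The counts of 6 and 8 thus include regions outside the 12, since the limits also drop weaker T1 peaks. At equal list length the counts of T2-only and T1-only genes were 4 and 2. They were 18 and 4 without T2 replicate 1, 20 and 1 without T2 replicate 2, 23 and 1 without T1 replicate 1 and 14 and 5 without T1 replicate 2. These settings were added after the data were seen, and read depth, which could bear on weak peaks, was not tested.

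Related lists of other tissues and families had small counts. Nuclear receptors and retinoid genes had 4 of 47 (8.51%), among them Rarb, the retinoic acid receptor beta, with 12.7 and 13.5 and the nearest T1 peak 89922 bp away, and Rorb (4.98 and 2.39). Neural and epithelial genes had 3 of 32 (9.38%), Vil1, the microvillus protein villin, with 21.1 and 15.9 at the 3′ end it shares with Usp37, Nefm, a neurofilament (7.30 and 4.02), and Cldn4, a tight junction claudin (8.15 and 3.45). Among gene families grouped by symbol, solute carriers had 13 of 389 (3.34%), ion channels 7 of 161 (4.35%), neurotransmitter receptors 5 of 98 (5.10%) and Hox genes 3 of 39 (7.69%), the last from 2 regions, since Hoxa5 and Hoxa6 share 1, against 1.94% of all genes. T1-only end regions were at 1 solute carrier (0.257%), 1 ion channel (0.621%), 1 neurotransmitter receptor (1.02%) and 1 Hox gene (2.56%), against 0.315% of all genes. Zinc-finger genes had 8 of 466 (1.72%), olfactory and vomeronasal receptors 4 of 1480 (0.270%), and integrins, keratins, F-box proteins and phosphatases 0.

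In CpG content, the promoters under T2-only regions lay between those under regions of all 4 libraries and those with no region. The ratio of observed to expected CpG had a median of 0.530 over 122 listed promoters of 114 genes, 0.288 over the 14 under T1-only regions, 0.790 over 10222 under regions of all 4 libraries and 0.201 over 8415 with no region in any library. It was at least 0.6 in 50 of the 122 (41.0%, 32.7 to 49.9), in 3 of the 14 (21.4%), in 77.9% under regions of all 4 libraries and in 8.41% of those with no region. Under regions of all 4 libraries that ranked below the median in both T2 lists, the median ratio was 0.684 (822 promoters, 62.2% at or above 0.6). Promoters under regions of T2 replicate 1 alone had 0.549, of T2 replicate 2 alone 0.406, of T1 replicate 1 alone 0.486 and of T1 replicate 2 alone 0.405.

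**Figure D5:**
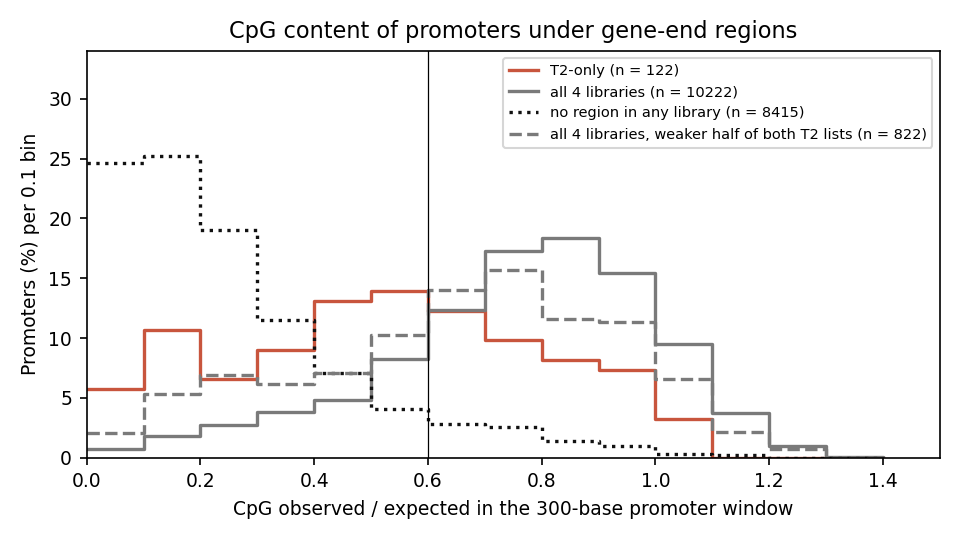
Distribution of the observed to expected CpG ratio (x axis, no unit) in 300-base promoter windows, as percent of promoters per 0.1 bin, with the ratio of 0.6 as a vertical line. The 122 promoters under T2-only regions (median 0.530) lie between the 8415 with no region (0.201) and the 10222 under regions of all 4 libraries (0.790); the dashed line is the 822 under weaker regions of all 4 libraries (0.684).

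Short motifs were searched in the same windows on both strands, each counted without regard to overlap with the others. GGGCGG, the GC box, was in 50% of the 122 windows, in 69.1% under regions of all 4 libraries and in 46.2% of all 21263 listed windows. AGATAA, the core bound by GATA factors, was in 14.8% (18 of 122, 9.54 to 22.1), against 5.37% under regions of all 4 libraries, 15.6% where no library had a region and 9.65% of all listed windows. It was in 1 of 14 windows under T1-only regions (7.14%) and in 2 of 83 under regions of T2 replicate 1 alone (2.41%). Under regions of T2 replicate 2 alone it was in 5 of 50 (10%, 4.35 to 21.4). Regions of T1 replicate 1 alone had it in 3 of 39 (7.69%, 2.65 to 20.3). Those of T1 replicate 2 alone had it in 0 of 12. Of the T1-only set and the sets of a library alone, only T2 replicate 1 alone (0.663 to 8.37) had an interval that did not overlap that of the 122 windows. TGANTCA, the AP-1 site, was in 10.7% (13 of 122, 6.33 to 17.4), against 3.99% under regions of all 4 libraries, 10.8% where no library had a region and 6.99% of all listed windows, and in 3 of 14 windows under T1-only regions (21.4%). AGGAAG, an ETS core, was in 35.2% (27.3 to 44.1), TGTGGT, the RUNX core, in 9.84% (5.72 to 16.4) and TGACCA, a BCL11A core, in 9.84% (5.72 to 16.4). Under regions of all 4 libraries these were in 31.8%, 11.6% and 10.2%. They were in 37.0%, 19.5% and 15.7% where no library had a region, and in 34.4%, 15.0% and 12.5% of all listed windows. A match is a string of letters and not a shown binding site. To let the AP-1 matches be compared, 4 of them are printed here from the RefSeq windows in the direction of the gene, with the match in capitals, all within the T2-only region. They lie at chr1:171437442-171437468 on the plus strand (F11r), chr2:52037961-52037987 on the plus strand (Tnfaip6), chr1:134111180-134111206 on the plus strand (Chit1) and chr10:5922506-5922532 on the minus strand (Rgs17).
F11r: ctgcgtacggTGAGTCActcatcggag
Tnfaip6: ccaatgcaaaTGAGTCAgagggcttgc
Chit1: taggaagaagTGAGTCActgtagtggt
Rgs17: gacgcgacagTGACTCAcgcatccgag

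F11r had −log10 q of 21.8 and 24.5 in the T2 libraries, and Tnfaip6, which encodes the hyaluronan-binding protein TSG-6 induced in inflammation, had 14.9 and 18.4 with the nearest T1 peak 34059 bp away. Chit1, which encodes a chitinase of macrophages, had 10.9 and 18.8, and Rgs17 had 19.5 and 10.1. In all 4 genes the region covered the start, and these genes were picked as the strongest with this match.

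Values on both sides of the limits of the rule are given as a description. The members nearest to the limit of 1000 bp were Traf6 at 999 bp, with 8.50 and 8.62, and Ablim1 at 998 bp, with 10.6 and 12.3. T2-only regions just outside it were at Bub1 at 1004 bp, with 7.85 and 6.92, and Gdf5 at 1008 bp, with 12.7 and 9.03. The weakest members were Hmbox1, with 2.26 and 3.83, Rorb, with 4.98 and 2.39, and Pcsk1, with 3.21 and 2.42.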

How the data were processed

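ATAC-seq was made from 4 libraries of MPP3 cells with a commercial kit (Vazyme), per the labels' protocols, and grouped by title into T2 (2 libraries) and T1 (2 libraries). Bowtie2, SAMtools, MACS2 and build mm10 are named per the submitters' processing notes. Their versions and settings, read filters and any shift for the transposase are not given in the sources used. Peaks were called by the authors per library, as the prefix of the deposited peak names shows. The deposited fold value is a ratio of a peak to its local background, and the deposited −log10 p and −log10 q give its significance. The deposited score is a whole number that follows −log10 q, and the deposited summit offset counts from the peak start. None is a read count, so depth is unknown and no count model was fitted.

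Overlapping peaks (at least 1 bp, chromosomes 1 to 19, X and Y) were joined into regions. A region counted for each library with a peak inside it, with the highest −log10 q as its strength. Gene ends came from 21887 protein-coding genes of RefSeq on GRCm38.p6, and the direction of 17492 of them from 21263 RefSeq promoter windows. Exons were not used here. Of 891 list symbols 887 matched, and 28 families were grouped by symbol. Members and lists were chosen with earlier results of these data known. The genes named were the strongest 20 by the smaller −log10 q of both T2 libraries, genes with 2 or more members, up to 4 per list and those nearest the limits. Predicted models were left out, a few genes are not reported here, and further genes named were chosen after their values were seen. Shares carry 95% Wilson intervals, and library values an exact permutation test. The joining was tested on simulated regions whose peaks had the same edges in every library and lay far apart. That test therefore says nothing about partly overlapping or adjacent peaks. Python 3.11.15, pandas 2.3.3, numpy 2.4.6 and scipy 1.17.1 were used. Alternatives were other strength limits, equal list length, overlap, summit windows, gap, gene-end windows, starts alone and leaving out each library.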

Additional observations from a re-analysis of the deposited data

How the results depend on the processing

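The number of T2-only regions at gene ends was 410 with the lists as deposited and 404, 420, 309, 519, 469 and 369 with −log10 q of at least 5, of at least 10, with presence at 5 and absence of any peak, with peaks covering at least 0.5 of a region, with windows around summits and with no T1 peak within 500 bp. Similar counts did not mean the same regions. Of the 410, 309 (75.4%) overlapped a T2-only gene-end region at a minimum of 5 and 125 (30.5%) at a minimum of 10. These limits also drop weaker T1 peaks, which lets other regions count as T2-only. It was 194 at equal list length, 248 and 669 with gene-end windows of 500 bp and 2 kb, and 198 at starts alone. T1-only regions, 68 as deposited, numbered 213 at equal list length, 146 with summit windows, 34 and 142 with windows of 500 bp and 2 kb, and 25 at starts alone. Leaving out 1 library gave 574 to 831 T2-only regions (697 without T2 replicate 1, 831 without T2 replicate 2, 808 without T1 replicate 1, 574 without T1 replicate 2) and 128 to 235 T1-only regions (190, 128, 161 and 235 in the same order), since its partner then decided alone. The share of T2-only regions at gene ends, 7.64%, was 8.73% with −log10 q of at least 10, 6.56% at equal length, 8.47% with 0.5 coverage, 4.62% and 12.5% with 500 bp and 2 kb, 3.69% at starts alone and 7.10% to 8.20% without a library. The share for T1-only regions, 3.75%, was 5.16% with −log10 q of at least 10, 6.78% at equal length, 7.25% with summit windows, 1.87% and 7.83% with 500 bp and 2 kb, 1.38% at starts alone and 4.74% to 5.61% without a library.

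The ratio of T2-only to T1-only regions at gene ends, 6.03, reversed to 0.911 at equal list length, a setting that by construction draws the ratio towards 1. It was 3.21 with summit windows, 7.92 at starts alone and 2.44 to 6.49 without a library, with 3.67 without T2 replicate 1 and the lowest value without T1 replicate 2. Of the 56 genes named by the rule, 47 were still on the T2 side at a minimum −log10 q of 5 and 31 at a minimum of 10. The number was 36 at equal length, 33 with the 500 bp window, 23 at starts alone and 54 to 56 without a library. In these settings 0 moved to the T1 side. The genes were named for a T2-only end region, and leaving out a library relaxes the rule. Staying on the T2 side was therefore largely fixed by the choice of genes and is no independent support. With libraries of the same replicate number taken as pairs (replicate block), the differences between T2 and T1 in library values stayed at −1.82, −1.63 and 1.36 by construction, with p = 0.5 in each (exact sign-flip permutation test over 2 pairs, two-sided, the smallest it allows); this was added after seeing the data, and the labels tie replicate numbers to no shared animal, batch or day. Alternatives on developmental regulators, gene counts, start shares and CpG medians were chosen after seeing the data. The counts and shares of regions come from no test, so they have no paired form. Depth, which the lists do not give, limits the absence of a peak: it is the lack of a call, not of accessibility.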

Other observations

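Members were found on every chromosome used except Y, which had 0 of 5 gene-end regions. Their share of gene-end regions ran from 1.47% on chromosome 8 (11 of 750) to 4.44% on chromosome 18 (15 of 338), against 2.89% in all. The deposited −log10 q took 276 distinct values over the 410 regions in T2 replicate 1 and 267 in T2 replicate 2, and the commonest value was shared by 16 regions (4.85) and by 20 regions (5.97), so small differences in strength between weak members carry little information.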
